A study of Mus musculus with 47 samples.

Results

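The 7 genes described here are Ddit4, Ddit4l, Sesn1, Sesn3, Fnip1, Deptor and Eif4ebp1. They act as brakes on, or nutrient sensors of, mechanistic target of rapamycin complex 1 (mTORC1), except Eif4ebp1, which encodes a substrate of it. They were chosen by name, from the rows of the deposited expression table whose Ensembl identifier maps to these symbols, and they are 7 of the 13500 genes in that table. All 7 passed the filter on low values, at least 1 FPKM (fragments per kilobase of transcript, scaled to library size) in at least 3 libraries, which left 12000 genes for testing. mTORC1 is a kinase complex that drives protein synthesis and restrains autophagy when growth factors and amino acids are plentiful. Growth factor signals reach it through the tuberous sclerosis (TSC) complex and the small GTPase Rheb, and amino acid signals reach it through the Rag GTPases on the lysosome. In skeletal muscle, glucocorticoids are known to lower mTORC1 activity, and Ddit4 is a textbook glucocorticoid-induced gene in that setting.

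RNA was sequenced from whole tibialis anterior, a fast muscle of the lower hind leg, of 47 female C57BL/6 mice fed ad libitum, in 12 groups of 4 mice, except 3 in 1 group. Wild-type (WT) mice had been adrenalectomised and injected with dexamethasone, a synthetic glucocorticoid (WT ADX+DEX), adrenalectomised and injected with adrenaline (WT ADX+ADR), adrenalectomised only (WT ADX), or sham-operated (WT sham). RE-RE mice, homozygous for Bmal1(stopFL) and carrying the transgenes Syt10-Cre(-/tg) and also Hsa-Cre(-/tg), had been adrenalectomised (RE-RE ADX) or sham-operated (RE-RE sham). Each of these 6 conditions was sampled at ZT12 and at ZT0, where ZT counts hours from lights-on. Syt10-Cre is known to act in brain, including the suprachiasmatic nucleus, and Hsa-Cre in skeletal muscle fibres, so the clock gene Bmal1 (Arntl) is restored in those cells while the stop cassette stays in others. Adrenalectomy removes the source of corticosterone, of circulating adrenaline and of aldosterone, and the operated mice drank saline with glucose. Dexamethasone was given at 5 mg/kg and adrenaline at 0.5 mg/kg, intraperitoneally, for 10 days at ZT12. The protocol also speaks of 2 weeks between treatment and collection, so the time from last dose to sampling is not settled by it. No group received vehicle injections. Ages ran from 8 to 18 weeks and differed between groups: WT sham mice were 9 to 12 weeks old, WT ADX mice 12 to 17 weeks, the hormone-treated mice 11 to 14 weeks, and RE-RE mice 8 to 18 weeks.

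Values are the authors' log2 FPKM, turned back to FPKM for reading. An exact 0 is written as "listed at 0", because a gene listed at 0 in a group need not be silent there. Among the members only Ddit4 has such values, in 10 of 47 libraries. Libraries of a group held between 25 and 103 values under 1 FPKM that equalled a value of another library of their group to the last digit. In 7 libraries this number was 0 or 1: WT sham ZT0 replicate 4, WT sham ZT12 replicate 8, RE-RE sham ZT0 replicate 2, RE-RE sham ZT12 replicate 6, RE-RE ADX ZT0 replicates 1 and 4, and RE-RE ADX ZT12 replicate 5. How the exact repeats came about is not given in the sources used here, so libraries of 1 group are not known to be independent measurements, and p-values measure the spread between these libraries only. Comparisons used limma on all 12 groups with Benjamini-Hochberg adjustment over the 12000 genes, and "rose" or "fell" means an adjusted p under 0.05. The summed level of 10 skeletal muscle markers was 69800 to 98600 FPKM in all libraries. It was not level between hours in WT sham muscle, at 86800 to 98600 FPKM at ZT12 against 70900 to 80600 FPKM at ZT0. There 6 of the 10 markers rose at ZT12 and 0 fell, which is 60.0% beside 23.5% of all genes. Arntl was listed at 13.4 to 15.2 FPKM in RE-RE sham and 14.2 to 18.8 FPKM in WT sham muscle at ZT0, so its transcript was present in RE-RE muscle.

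Promoter windows, 250 bases before to 50 after an annotated start, came from RefSeq on GRCm38.p6 and covered 5 members. The windows of Eif4ebp1 and Deptor were not analysed here. Each window was searched on both strands for AGAACA (glucocorticoid half-site), the glucocorticoid palindrome (that half-site, a spacer of any bases and its reverse complement), CACGTG (E-box), GTAAACA (FOXO site), TGATGCAA (ATF4 composite site) and TGACGTCA (cAMP response element). Of 32851 promoters in the RefSeq table, 19.0%, 0.00913%, 7.15%, 3.65%, 0.895% and 1.79% hold them, in the same order. The palindrome contains the half-site and so counts under both. The Ddit4 window is shown because Ddit4 is a textbook glucocorticoid-induced gene. Those of Fnip1 and Sesn1 are shown because they hold a match, which is in capitals. Ddit4 lies at chr10:59951721-59952020, minus strand, Fnip1 at chr11:54437929-54438228, plus strand, and Sesn1 at chr10:41810324-41810623, plus strand.
Ddit4: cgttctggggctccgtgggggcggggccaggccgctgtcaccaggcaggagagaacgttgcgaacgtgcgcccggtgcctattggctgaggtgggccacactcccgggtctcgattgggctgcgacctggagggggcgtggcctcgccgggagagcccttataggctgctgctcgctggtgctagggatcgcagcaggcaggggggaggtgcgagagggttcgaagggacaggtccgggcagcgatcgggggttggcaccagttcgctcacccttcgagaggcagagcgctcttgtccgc
Fnip1: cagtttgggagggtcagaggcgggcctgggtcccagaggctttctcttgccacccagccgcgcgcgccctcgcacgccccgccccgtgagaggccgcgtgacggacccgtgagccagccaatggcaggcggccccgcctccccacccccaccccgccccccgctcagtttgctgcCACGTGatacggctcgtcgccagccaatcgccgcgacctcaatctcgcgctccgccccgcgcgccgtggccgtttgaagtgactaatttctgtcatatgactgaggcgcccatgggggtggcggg
Sesn1: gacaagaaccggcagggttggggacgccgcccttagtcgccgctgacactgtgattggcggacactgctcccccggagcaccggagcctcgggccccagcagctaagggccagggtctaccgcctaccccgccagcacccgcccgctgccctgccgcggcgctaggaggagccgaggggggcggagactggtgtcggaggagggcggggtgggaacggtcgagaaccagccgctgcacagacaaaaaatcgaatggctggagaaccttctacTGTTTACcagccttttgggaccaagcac
The Fnip1 window holds 1 E-box, CACGTG, whose first base is at -75 from the start, and the Sesn1 window holds 1 FOXO site on the reverse strand, read here as TGTTTAC, at +22. None of the 6 motifs was found in the windows of Ddit4, Ddit4l or Sesn3, nor in that of a second Sesn1 start at chr10:41887189-41887488. A match is a description of letters, not a bound site, and a missing match says nothing about sequence outside the window.

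The members differ widely in level, and FPKM allows that comparison because it is per transcript length. Ddit4l was the most abundant, with a median over 47 libraries of 77.4 FPKM, followed by Eif4ebp1 at 21.4, Sesn1 at 13.3, Deptor at 11.0, Fnip1 at 9.32 and Ddit4 at 9.02 FPKM. Sesn3 was near the detection filter, with a median of 0.694 FPKM and only 4 libraries at or above 1 FPKM. The ratio of the highest to the lowest group mean was 3.48 for Sesn3, 3.19 for Eif4ebp1, 2.42 for Ddit4l, 1.99 for Fnip1, 1.95 for Deptor and 1.59 for Sesn1. No such ratio is given for Ddit4, which was listed at 0 in every library of 2 groups. In bulk muscle, fewer cells of a type and less RNA per cell cannot be told apart.

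Ddit4 (ENSMUSG00000020108, chr10:59949669-59951834, minus strand, GRCm38) encodes REDD1, which restrains mTORC1 by freeing the TSC complex from inhibition. Its level differed between the adrenalectomised groups, with dexamethasone highest at both hours among the WT ones. In WT ADX+DEX muscle it was 64.2, 59.6, 68.5 and 64.9 FPKM at ZT12 and 9.25, 9.15, 10.2 and 12.4 FPKM at ZT0. In WT ADX+ADR muscle it was 3.70, 3.54, 5.56 and 3.74 FPKM at ZT12 and listed at 0 in all 4 libraries at ZT0. In WT ADX muscle all 4 ZT12 libraries were listed at 0, and the ZT0 libraries held 0.854, 2.93 and 2.60 FPKM. The dexamethasone libraries were thus above every library of the other WT adrenalectomised groups at the same hour, and the order of hours in WT ADX was the reverse of that in the other conditions. In WT sham muscle Ddit4 was 26.9, 7.78, 13.0 and 23.3 FPKM at ZT12 and 0.835, 1.57, 1.84 and 0 FPKM at ZT0. RE-RE ADX muscle held 12.0, 12.1, 11.1 and 15.4 FPKM at ZT12 and 9.94, 10.8, 10.8 and 2.36 FPKM at ZT0. RE-RE sham muscle held 18.2, 34.8, 19.2 and 18.8 FPKM at ZT12 and 9.02, 0, 8.95 and 9.31 FPKM at ZT0. The 0 in RE-RE sham ZT0, the 34.8 in RE-RE sham ZT12, the 2.36 in RE-RE ADX ZT0 and the 0 in WT sham ZT0 all belong to libraries that stand apart by their exact values.

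Ddit4 was higher at ZT12 than at ZT0 in WT sham muscle, at 17.7 ± 8.86 against 1.06 ± 0.825 FPKM (SD, n = 4 each), a log2 difference of 5.32 (SE 1.26, adjusted p = 0.00211). Without the 7 libraries that stand apart, 1 of which holds the 0 at ZT0, that difference was 3.37 (adjusted p = 7.58e-09), and with only the 2 groups in the fit the adjusted p was 0.0514. In WT ADX muscle the ZT12 level was below the ZT0 level (adjusted p = 0.000318), and the time difference itself differed between WT ADX and WT sham muscle (adjusted p = 4.69e-05). On log2(FPKM + 1), which gives values listed at 0 less weight, these adjusted p-values were 0.033 and 2.94e-05. At ZT12, Ddit4 fell with adrenalectomy, being listed at 0 in all WT ADX libraries against 7.78 to 26.9 FPKM in WT sham (adjusted p = 1.17e-07). At ZT0 no difference passed, with 2.13 ± 1.12 FPKM in WT ADX (SD, n = 3) and 1.06 ± 0.825 FPKM in WT sham (SD, n = 4, adjusted p = 0.213).

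Dexamethasone raised Ddit4 over WT ADX at ZT12 (adjusted p = 6.14e-11). At ZT0 the 2 groups did not overlap, and neither held a library listed at 0. The log2 difference of 2.44 (SE 1.37) did not pass in the fit of all 12 groups (adjusted p = 0.111). It passed on log2(FPKM + 1), at 1.91 (adjusted p = 0.000761). The adjusted p was 0.00206 with only the 2 groups in the fit and 3.67e-08 without the 7 libraries that stand apart. Adrenaline raised Ddit4 over WT ADX at ZT12 (adjusted p = 6.55e-07) and lowered it at ZT0 (adjusted p = 2.14e-05). Both calls were weaker on log2(FPKM + 1), with adjusted p = 4.37e-05 at ZT12 and 0.00695 at ZT0. Between the hormones, WT ADX+DEX stood above WT ADX+ADR at ZT12 by 3.98 on the log2 scale (SE 1.26, adjusted p = 0.0105) and at ZT0 (adjusted p = 2.95e-08). The time difference under adrenaline differed from that in WT ADX muscle (adjusted p = 2.12e-07), as did the time difference under dexamethasone (adjusted p = 0.00018). On log2(FPKM + 1) the adjusted p was 0.000199 for adrenaline and 3.4e-05 for dexamethasone. Within the hormone-treated mice, Ddit4 rose at ZT12 over ZT0 in WT ADX+ADR (adjusted p = 4.69e-06, and 0.00029 on log2(FPKM + 1)). In WT ADX+DEX the hours did not overlap and no library was listed at 0. The log2 difference of 2.66 did not pass in the fit of all 12 groups (SE 1.26, adjusted p = 0.117). It did on log2(FPKM + 1), at 2.55 (adjusted p = 3.36e-05). The adjusted p was 7.09e-06 with only these groups in the fit and 2.38e-08 without the 7 libraries that stand apart.

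In RE-RE ADX muscle no library was listed at 0 for Ddit4 at ZT12. RE-RE ADX held 12.6 FPKM on average and RE-RE sham 22.8 FPKM, a log2 difference of -0.80 (SE 1.26, adjusted p = 0.781), although the 2 groups did not overlap. Whether the effect of adrenalectomy differed between the genotypes was not tested. The ZT12 level in RE-RE sham muscle was above the ZT0 level by 3.72 on the log2 scale (SE 1.26), just short of the threshold (adjusted p = 0.051). That difference shrank to 1.04 (adjusted p = 0.0507) without the libraries that stand apart and passed on log2(FPKM + 1), at 2.02 (adjusted p = 0.00215). In RE-RE ADX muscle it was 0.79 (SE 1.26, adjusted p = 0.902). RE-RE sham and WT sham muscle did not differ past the threshold at ZT12 (0.46, adjusted p = 0.84) or at ZT0 (2.06, adjusted p = 0.239), where the difference without the 7 libraries was 2.75 (adjusted p = 8.64e-07).

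**Figure D1:**
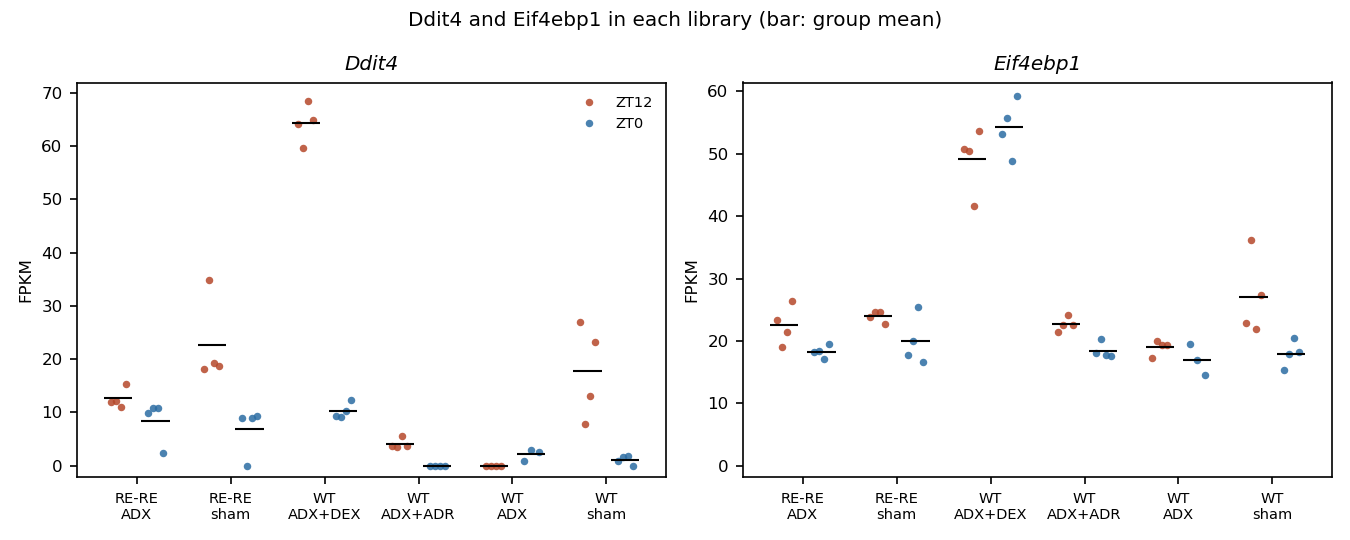
Levels of Ddit4 (left) and Eif4ebp1 (right) in FPKM on linear axes, with 1 point per library, bars at group means, and ZT12 left of ZT0 within each of the 6 conditions. Ddit4 reaches 59.6 to 68.5 FPKM in WT ADX+DEX at ZT12 and lies at 0 in WT ADX at ZT12 and in WT ADX+ADR at ZT0, while Eif4ebp1 is 41.6 to 59.2 FPKM in WT ADX+DEX and at most 36.2 FPKM in any other library.

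Ddit4l (ENSMUSG00000046818, chr3:137621612-137628333, plus strand) encodes REDD2, the muscle-enriched relative of REDD1, which also restrains mTORC1. It followed a different course: its lowest group was RE-RE sham at ZT12, with 40.1, 34.4, 36.4 and 43.8 FPKM. RE-RE sham at ZT0 held 83.1, 72.6, 62.6 and 70.7 FPKM, and WT sham at ZT12 held 52.1, 93.1, 58.4 and 70.7 FPKM. The RE-RE sham ZT12 libraries lay below every library of both. Ddit4l thus fell at ZT12 against ZT0 in RE-RE sham muscle by 0.90 on the log2 scale (SE 0.18, adjusted p = 0.000613), and was lower in RE-RE sham than in WT sham at ZT12 by a log2 difference of -0.80 (SE 0.18, adjusted p = 0.00156). In RE-RE ADX muscle at ZT12 it was 55.3, 60.6, 81.4 and 76.4 FPKM, above all RE-RE sham libraries of that hour, a log2 difference of 0.81 (SE 0.18, adjusted p = 0.00709). Without the 7 libraries that stand apart this difference was 0.85 (adjusted p = 0.0591).

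In WT muscle no Ddit4l difference passed in the main fit, though some came close to the threshold and crossed it under another setting. The ZT12 level was lower than the ZT0 level in WT sham, at 68.6 ± 18.1 against 92.8 ± 3.87 FPKM (SD, n = 4 each), a log2 difference of -0.47 (SE 0.18, adjusted p = 0.0534, and 0.0496 with age as a covariate). At ZT12, WT ADX averaged 93.5 FPKM and WT sham 68.6 FPKM (log2 difference 0.46, SE 0.18, adjusted p = 0.0531, and 0.0483 on log2(FPKM + 1)). Dexamethasone gave 72.3 FPKM at ZT12 against 93.5 FPKM in WT ADX (log2 difference -0.38, SE 0.18, adjusted p = 0.0641, and 0.00432 with replicate number as a block). Adrenaline gave 81.4 FPKM at ZT12 (log2 difference from WT ADX -0.19, adjusted p = 0.375). So the paralogues did not move together: across the 12 group means on the log2(FPKM + 1) scale, Pearson's r between Ddit4 and Ddit4l was -0.63, a description over means that share libraries with every other gene.

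Sesn1 and Sesn3 encode sestrins, stress-induced proteins that block mTORC1 through GATOR2, a complex that relays amino acid signals to the Rag GTPases. Sesn2, the third sestrin and a leucine sensor, belongs to the list of amino acid sensing genes below. Sesn1 (ENSMUSG00000038332, chr10:41809935-41908424, plus strand) was lowest under adrenaline. WT ADX+ADR muscle held 11.4, 11.5, 9.47 and 8.11 FPKM at ZT12, against 13.1, 15.5, 14.7 and 14.7 FPKM in WT ADX. At ZT0, WT ADX+ADR muscle held 11.3, 9.86, 11.0 and 11.5 FPKM, against 16.6, 17.7 and 14.1 FPKM in WT ADX. The groups did not overlap at either hour, and Sesn1 fell with adrenaline by 0.53 at ZT12 (SE 0.12, adjusted p = 0.000343) and by 0.56 at ZT0 (SE 0.13, adjusted p = 0.000459) on the log2 scale. Under dexamethasone Sesn1 was 15.4, 15.0, 12.5 and 16.5 FPKM at ZT12, a log2 difference from WT ADX of 0.03 (SE 0.12, adjusted p = 0.821). It was therefore higher with dexamethasone than with adrenaline at ZT12, by 0.56 (SE 0.12, adjusted p = 0.000214). At ZT0 it fell with dexamethasone by 0.32 (SE 0.13, adjusted p = 0.0298), with overlapping groups. That call was lost when any 1 of 4 libraries was left out, namely WT ADX ZT0 replicate 1 or 2 (adjusted p = 0.0797 and 0.143) or WT ADX+DEX ZT0 replicate 1 or 3 (adjusted p = 0.0857 and 0.121). No Sesn1 difference between hours, between ADX and sham, or between genotypes passed.

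Sesn3 (ENSMUSG00000032009, chr9:14275067-14333101, plus strand) was low throughout and lowest in the hormone-treated groups. WT ADX+DEX muscle held 0.568, 0.495, 0.460 and 0.141 FPKM at ZT12 and 0.235, 0.283, 0.342 and 0.324 FPKM at ZT0. WT ADX+ADR muscle held 0.585, 0.539, 0.404 and 0.481 FPKM at ZT12 and 0.284, 0.645, 0.295 and 0.569 FPKM at ZT0. WT ADX muscle held 1.20, 0.773, 0.912 and 0.585 FPKM at ZT12 and 1.16, 0.883 and 1.05 FPKM at ZT0. At ZT0 every library of either hormone lay below every WT ADX library, while at ZT12 the lowest WT ADX library equalled the highest WT ADX+ADR library at the printed precision. The 4 libraries that took Sesn3 past the filter, at 1.05 to 1.20 FPKM, are all from adrenalectomy-only groups, 3 of them WT ADX, the group these hormone differences are measured from. Its calls are therefore given as a description; with no filter on low values the same 4 differences had adjusted p-values of 0.000308 and 1.88e-06 with dexamethasone and 0.0211 and 0.000501 with adrenaline, at ZT12 and ZT0 in turn. Sesn3 fell with dexamethasone by 1.16 at ZT12 (SE 0.27, adjusted p = 0.000311) and by 1.77 at ZT0 (SE 0.29, adjusted p = 1.93e-06). It fell with adrenaline by 0.74 at ZT12 (SE 0.27, adjusted p = 0.0211) and by 1.27 at ZT0 (SE 0.29, adjusted p = 0.000498). The ZT12 call with adrenaline was lost without WT ADX ZT12 replicate 4 (the library at 1.20 FPKM, adjusted p = 0.0976) or without WT ADX+ADR ZT12 replicate 7 (adjusted p = 0.0717). Between dexamethasone and adrenaline the log2 difference was -0.42 at ZT12 (SE 0.27, adjusted p = 0.22) and -0.50 at ZT0 (SE 0.27, adjusted p = 0.127), which does not show that they act alike. Levels under 1 FPKM rest on few reads, so the precision of these values is limited.

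Fnip1 (ENSMUSG00000035992, chr11:54438199-54518235, plus strand) encodes a partner of folliculin, whose complex acts on the Rag GTPases and binds AMP-activated protein kinase (AMPK). Under either hormone it was lower than in WT ADX muscle at ZT0. WT ADX+DEX muscle held 5.30, 5.93, 5.07 and 7.02 FPKM, and WT ADX+ADR muscle 6.11, 5.90, 5.55 and 9.49 FPKM, against 9.32, 14.4 and 10.2 FPKM in WT ADX, all at ZT0. The dexamethasone libraries lay below all WT ADX libraries, and 1 adrenaline library, replicate 4, reached into their range. Fnip1 fell at ZT0 with dexamethasone by 0.94 (SE 0.16, adjusted p = 1.78e-06) and with adrenaline by 0.75 (SE 0.16, adjusted p = 0.000137) on the log2 scale. At ZT12 WT ADX+DEX held 9.72, 9.96, 9.61 and 8.78 FPKM and WT ADX+ADR 8.54, 9.50, 9.19 and 10.1 FPKM, against 9.89, 10.0, 9.23 and 11.3 FPKM in WT ADX. The log2 differences from WT ADX at ZT12 were -0.09 with dexamethasone (SE 0.14, adjusted p = 0.615) and -0.11 with adrenaline (SE 0.14, adjusted p = 0.523).

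Fnip1 differed between hours in both hormone-treated conditions. It rose at ZT12 over ZT0 by 0.72 in WT ADX+DEX (SE 0.14, adjusted p = 0.000188) and by 0.50 in WT ADX+ADR (SE 0.14, adjusted p = 0.0168). The time difference in WT ADX+DEX exceeded that in WT ADX by 0.85 (SE 0.21, adjusted p = 0.00441), and all 15 fits that left out 1 library kept this call. For WT ADX+ADR against WT ADX it was 0.64 (SE 0.21, adjusted p = 0.0778). The time call in WT ADX+ADR was lost when WT ADX+ADR ZT0 replicate 1, 2 or 3 (adjusted p = 0.0521, 0.0601 and 0.0833) or WT ADX+ADR ZT12 replicate 8 (adjusted p = 0.0564) was left out. In RE-RE muscle at ZT12, Fnip1 fell with adrenalectomy by 0.77 (SE 0.14, adjusted p = 0.00187), with 7.19, 6.62, 6.24 and 6.95 FPKM in RE-RE ADX against 12.7, 11.4, 8.98 and 13.4 FPKM in RE-RE sham. These groups did not overlap. In WT muscle at ZT12 the corresponding log2 difference was -0.09 (SE 0.14, adjusted p = 0.705), with 10.1 FPKM on average in WT ADX and 10.7 FPKM in WT sham. Whether the genotypes differed in this respect was not tested.

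Deptor (ENSMUSG00000022419, chr15:55112317-55259271, plus strand) encodes a protein that binds and inhibits mTOR in both of its complexes. Its level was lower under dexamethasone at both hours. WT ADX+DEX muscle held 7.92, 7.43, 10.8 and 9.32 FPKM at ZT12, against 14.8, 16.3, 14.7 and 14.5 FPKM in WT ADX. At ZT0 it held 6.26, 8.57, 9.24 and 6.98 FPKM, against 12.0, 11.1 and 14.9 FPKM in WT ADX. The groups were separate at both hours, and Deptor fell by 0.78 at ZT12 (SE 0.13, adjusted p = 3.09e-06) and by 0.71 at ZT0 (SE 0.14, adjusted p = 3.7e-05) on the log2 scale. Under adrenaline it was 10.8 to 14.6 FPKM at ZT12 and 10.7 to 12.8 FPKM at ZT0. The log2 differences from WT ADX, -0.28 (SE 0.13, adjusted p = 0.0708) and -0.10 (SE 0.14, adjusted p = 0.569), did not pass, but the first did with only the groups compared in the fit (adjusted p = 0.0339). Dexamethasone left Deptor below adrenaline by a log2 difference of -0.50 at ZT12 (SE 0.13, adjusted p = 0.00231) and -0.61 at ZT0 (SE 0.13, adjusted p = 0.000213). Deptor averaged 10.9 FPKM in RE-RE sham against 12.9 FPKM in WT sham at ZT12 (adjusted p = 0.198), and 8.99 FPKM in RE-RE sham against 11.1 FPKM in WT sham at ZT0 (adjusted p = 0.0751).

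Eif4ebp1 (ENSMUSG00000031490, chr8:27260329-27276674, plus strand) encodes 4E-BP1, which holds back cap-dependent translation until mTORC1 phosphorylates it. Its level was higher under dexamethasone at both hours. WT ADX+DEX muscle held 50.7, 50.5, 41.6 and 53.6 FPKM at ZT12, against 17.2, 20.0, 19.4 and 19.3 FPKM in WT ADX. At ZT0 it held 53.2, 55.7, 48.8 and 59.2 FPKM, against 19.5, 17.0 and 14.5 FPKM in WT ADX. No library of any other group reached the lowest of these 8 dexamethasone libraries. Eif4ebp1 rose by 1.37 at ZT12 (SE 0.12, adjusted p = 2.42e-12), which is 2.58-fold, and by 1.68 at ZT0 (SE 0.13, adjusted p = 5.38e-14), which is 3.21-fold. Adrenaline gave 21.5 to 24.1 FPKM at ZT12 and 17.6 to 20.3 FPKM at ZT0, with log2 differences from WT ADX of 0.26 (SE 0.12, adjusted p = 0.0689) and 0.12 (SE 0.13, adjusted p = 0.443). The ZT12 groups did not overlap, and with only the groups compared in the fit that difference passed (adjusted p = 0.00702). Dexamethasone exceeded adrenaline by 1.11 at ZT12 (SE 0.12, adjusted p = 1.49e-09) and by 1.56 at ZT0 (SE 0.12, adjusted p = 2.2e-13).

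Eif4ebp1 also differed between hours in WT sham muscle, where it was 22.9, 36.2, 21.9 and 27.3 FPKM at ZT12 and 15.4, 17.9, 20.4 and 18.2 FPKM at ZT0. It rose at ZT12 by 0.57 on the log2 scale (SE 0.12, adjusted p = 0.000634). In WT ADX muscle, at 19.0 ± 1.21 FPKM at ZT12 (SD, n = 4) and 17.0 ± 2.53 FPKM at ZT0 (SD, n = 3), the difference was 0.17 (SE 0.13, adjusted p = 0.445). The difference between these time effects, -0.40 (SE 0.18), did not pass (adjusted p = 0.283). At ZT12 Eif4ebp1 fell with adrenalectomy by 0.49 in WT muscle (SE 0.12, adjusted p = 0.00242). With age as a covariate this was -0.33 (adjusted p = 0.108), and WT ADX mice at ZT12 were 13 to 17 weeks old against 10 to 12 weeks in WT sham, so age and surgery are only partly separable.

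**Figure D2:**
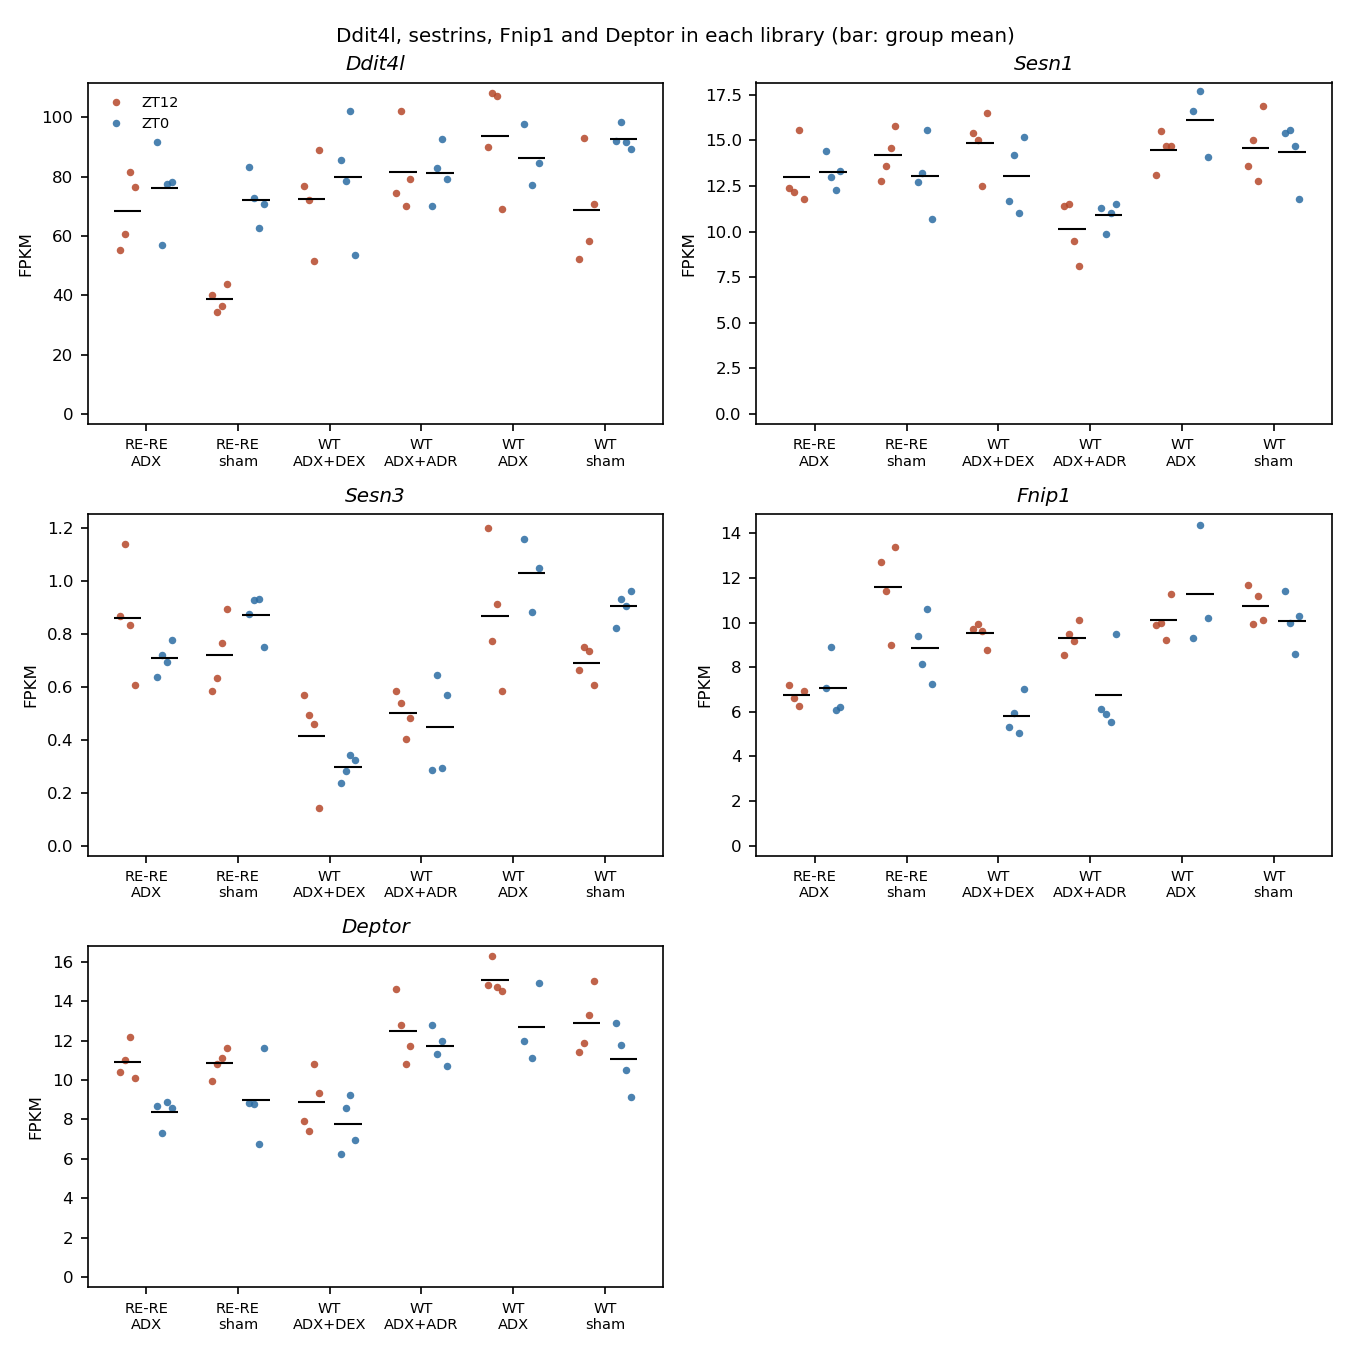
Levels of Ddit4l, Sesn1, Sesn3, Fnip1 and Deptor in FPKM on linear axes, with 1 point per library, bars at group means, and ZT12 left of ZT0 within each condition. Ddit4l is lowest in RE-RE sham at ZT12 (34.4 to 43.8 FPKM), Sesn1 in WT ADX+ADR (8.11 to 11.5 FPKM), Sesn3 in both hormone-treated conditions (0.141 to 0.645 FPKM), Fnip1 in WT ADX+DEX at ZT0 (5.07 to 7.02 FPKM) and Deptor in WT ADX+DEX at ZT0 (6.26 to 9.24 FPKM).

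When the 12 group means of a member are put in order, neighbours mostly overlap. For Sesn1, Fnip1 and Deptor all 11 neighbouring pairs overlapped in their libraries. Eif4ebp1 had 1 separate step, between WT ADX+DEX at ZT12 and WT sham at ZT12. Ddit4l had 1, between RE-RE ADX at ZT12 and RE-RE sham at ZT12, and Sesn3 had 1, between WT sham at ZT12 and WT ADX+ADR at ZT12. Ddit4 had 2, between WT ADX+DEX and RE-RE sham at ZT12 and between WT ADX+ADR at ZT12 and WT ADX at ZT0.

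Counts of members past the threshold stood near the share of all genes in the hormone comparisons. With dexamethasone against WT ADX, 4 of 7 members passed at ZT12 (Ddit4 and Eif4ebp1 up, Sesn3 and Deptor down) where 66.3% of all 12000 genes passed, and 5 of 7 at ZT0 (Eif4ebp1 up, Sesn1, Sesn3, Fnip1 and Deptor down) where 68.9% passed. The median log2 difference of the members was -0.09 at ZT12 and -0.32 at ZT0, beside 0.02 and 0.04 over all genes. With adrenaline against WT ADX, 3 of 7 passed at ZT12 (Ddit4 up, Sesn1 and Sesn3 down) with 53.0% of all genes, and 4 of 7 at ZT0 (Ddit4, Sesn1, Sesn3 and Fnip1 down) with 51.1%. Between dexamethasone and adrenaline, 4 of 7 passed at ZT12 with 42.6% of all genes, and 3 of 7 at ZT0 with 48.6%. The counts against WT ADX include Sesn3, which passed the filter mostly through WT ADX libraries, and these counts single out no property of the members. The dexamethasone and adrenaline comparisons share the WT ADX libraries, and their values are therefore given side by side only.

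Adrenalectomy touched fewer members. In WT muscle 2 of 7 passed at ZT12 (Ddit4 and Eif4ebp1 down), with 26.9% of all genes. None passed in limma at ZT0, where 32.0% of all genes did, and 0 members had an unadjusted p under 0.05. In RE-RE muscle 2 of 7 passed at ZT12 (Ddit4l up, Fnip1 down), with 5.32% of all genes. At ZT0, with 5.45% of all genes called, none passed in limma, and 1, Fnip1, had an unadjusted p under 0.05. Between RE-RE sham and WT sham muscle, 1 of 7 passed at ZT12 (Ddit4l) with 19.3% of all genes, and none at ZT0 with 24.1%, where 2 members, Ddit4l and Deptor, had an unadjusted p under 0.05 in limma.

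**Figure D3:**
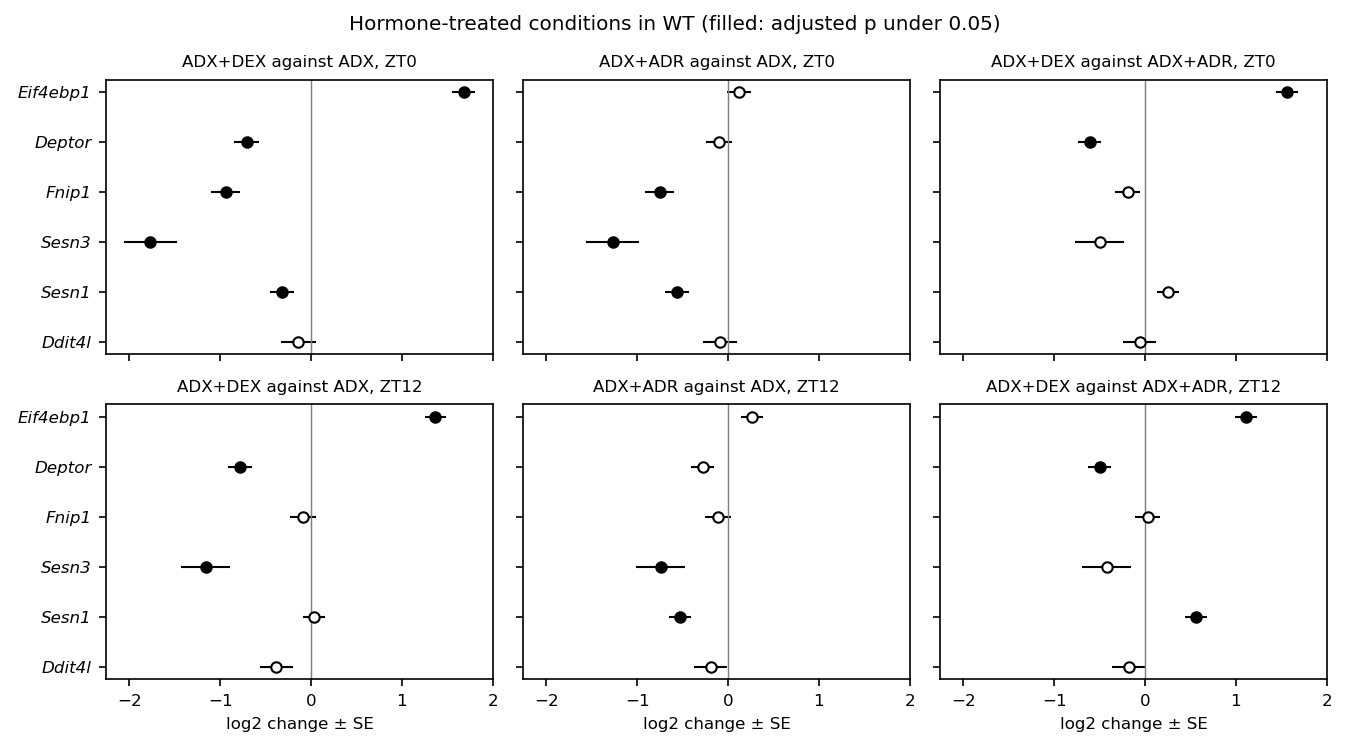
Log2 differences of 6 members between hormone-treated and WT ADX muscle and between the hormones, at ZT0 (top row) and ZT12 (bottom row), with bars of 1 SE and filled points for an adjusted p under 0.05. Eif4ebp1 lies at 1.68 and 1.37 and Deptor at -0.71 and -0.78 with dexamethasone against WT ADX, whereas both are open points with adrenaline. Ddit4 is not drawn because it was listed at 0 in whole groups.

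Between ZT12 and ZT0, 2 of 7 members passed in WT sham muscle (Ddit4 and Eif4ebp1 up), with 23.5% of all genes. In WT ADX 1 passed (Ddit4, down) with 11.0% of all genes. In WT ADX+ADR 2 passed (Ddit4 and Fnip1 up) with 12.7%, and in WT ADX+DEX 1 passed (Fnip1, up) with 27.8%. Ddit4, also higher at ZT12 in WT ADX+DEX, passed there only under other settings, as given above. In RE-RE sham muscle 1 passed (Ddit4l, down) with 10.8% of all genes. In RE-RE ADX none passed in limma, with 0.775% of all genes called, and 2 members, Eif4ebp1 and Deptor, had an unadjusted p under 0.05. The time difference itself differed from that of WT ADX for 1 member in WT ADX+ADR (Ddit4; 4.62% of all genes) and for 2 in WT ADX+DEX (Ddit4 and Fnip1; 17.2%). Between WT ADX and WT sham it differed for 1 member (Ddit4; 1.54% of all genes). Between RE-RE ADX and RE-RE sham it differed for none in limma, with 0.0667% of all genes called, and Ddit4l and Fnip1 were the 2 members with an unadjusted p under 0.05.

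**Figure D4:**
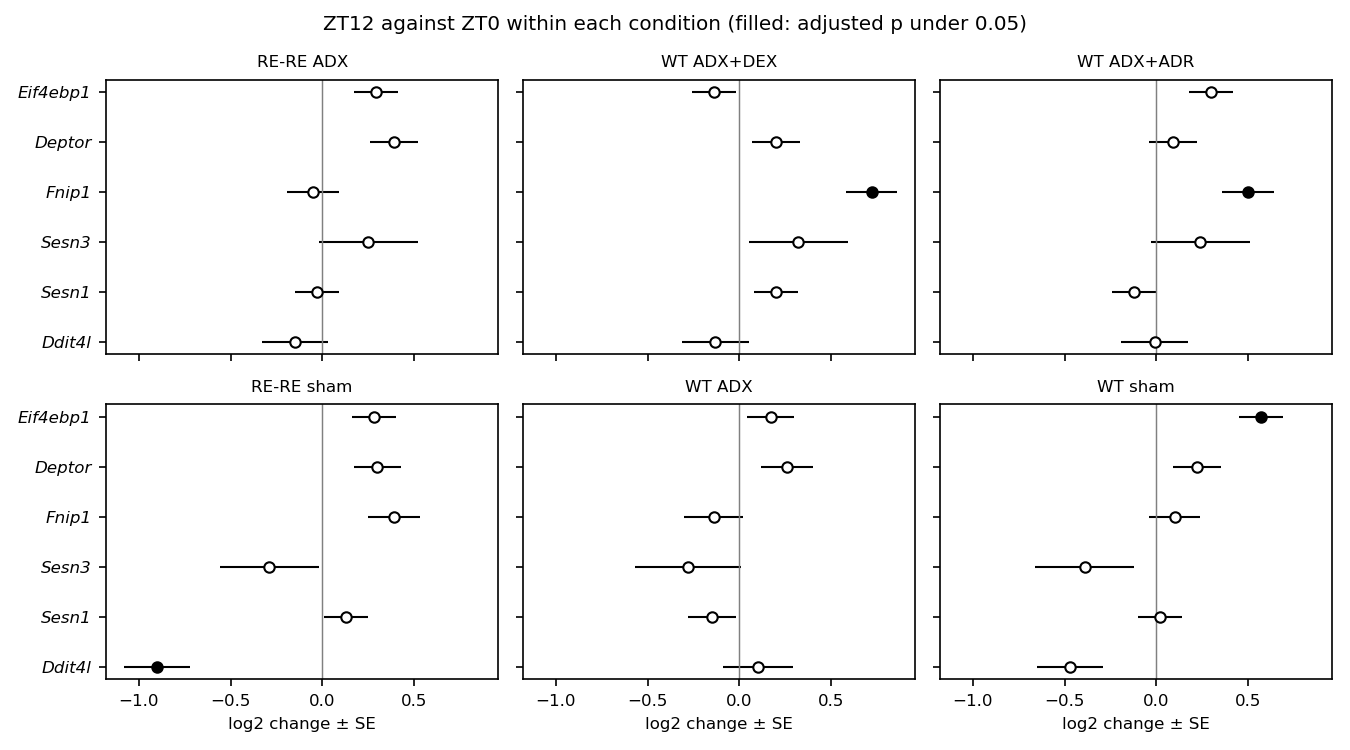
Log2 differences of ZT12 against ZT0 for 6 members within each condition, with bars of 1 SE and filled points for an adjusted p under 0.05. Filled points are Eif4ebp1 in WT sham (0.57), Fnip1 under dexamethasone (0.72) and adrenaline (0.50), and Ddit4l in RE-RE sham (-0.90). Ddit4 is not drawn because it was listed at 0 in whole groups.

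The other genes of the pathway are given as counts, to be read beside the share of all genes that passed. With dexamethasone at ZT12, 6 of the 9 tested genes for subunits and partners of the mTOR complexes rose and 0 fell against WT ADX, which is 66.7% called beside 66.3% of all genes. Mtor, the kinase itself, was at 7.86 FPKM in WT ADX+DEX against 4.43 FPKM in WT ADX (log2 difference 0.83, SE 0.07, adjusted p = 7.98e-13). Of 16 effectors and substrates downstream of mTORC1, 12 rose and 2 fell, which is 87.5%. Eif4ebp2, the relative of Eif4ebp1, rose to 57.1 FPKM in WT ADX+DEX against 33.1 FPKM in WT ADX (0.79, SE 0.07, adjusted p = 3.06e-12). Lpin1, a phosphatidate phosphatase that mTORC1 keeps out of the nucleus, rose to 103 FPKM in WT ADX+DEX against 34.7 FPKM in WT ADX (1.59, SE 0.11, adjusted p = 1.15e-14). Grb10, an adaptor that dampens insulin signalling, fell to 2.05 FPKM in WT ADX+DEX against 8.13 FPKM in WT ADX (-2.01, SE 0.11, adjusted p = 1.98e-17). The median of the effectors was 0.22, beside 0.02 over all genes. At ZT0 the counts were 6 up and 1 down of 9 for the complexes and 9 up and 2 down of 16 for the effectors, which is 77.8% and 68.8% beside 68.9% of all genes. Eef2k, the kinase that stalls elongation, was at 19.4 FPKM in WT ADX+DEX against 4.93 FPKM in WT ADX (1.98, SE 0.10, adjusted p = 3.29e-19).

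Genes upstream of mTORC1 moved in both directions. Of 13 genes for the TSC complex, Rheb and AMPK, 5 rose and 4 fell with dexamethasone at ZT12, and 5 rose and 5 fell at ZT0, which is 69.2% and 76.9%. Tsc1, the scaffold of the TSC complex, rose at ZT12 to 8.42 FPKM in WT ADX+DEX against 5.21 FPKM in WT ADX (0.69, SE 0.06, adjusted p = 1.98e-12), whereas Prkag3, the AMPK gamma subunit of fast muscle, fell to 12.0 FPKM in WT ADX+DEX against 60.1 FPKM in WT ADX (-2.33, SE 0.30, adjusted p = 1.8e-08). Of 26 tested genes for amino acid sensing on the lysosome, 13 rose and 4 fell at ZT12 and 11 rose and 5 fell at ZT0, which is 65.4% and 61.5%. Castor1, an arginine sensor, rose at ZT12 to 2.55 FPKM in WT ADX+DEX against 1.30 FPKM in WT ADX (0.99, SE 0.17, adjusted p = 2.92e-06), and was among the 5 that fell at ZT0. The 4 that fell at ZT12 included Flcn, which encodes folliculin, the partner of FNIP1.

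With adrenaline against WT ADX, 53.0% of all genes passed at ZT12 and 51.1% at ZT0. Of the 9 complex genes 6 rose and 0 fell at ZT12, and 8 rose and 0 fell at ZT0, which is 66.7% and 88.9%. Of the 16 effectors 5 rose and 2 fell at ZT12, and 6 rose and 4 fell at ZT0, which is 43.8% and 62.5%. Grb10 fell here too, at ZT12 to 3.07 FPKM in WT ADX+ADR against 8.13 FPKM in WT ADX (-1.43, SE 0.11, adjusted p = 2.05e-12). Of the TSC, Rheb and AMPK genes 5 rose and 1 fell at ZT12, and 5 rose and 2 fell at ZT0, which is 46.2% and 53.8%. Of the amino acid sensing genes 7 rose and 4 fell at ZT12, and 7 rose and 5 fell at ZT0, which is 42.3% and 46.2%.

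With adrenalectomy in WT muscle, falls outnumbered rises over all genes, with 1992 down and 1240 up at ZT12 and 2322 down and 1516 up at ZT0. At ZT12, 0 of the 9 complex genes rose and 2 fell, with Mtor at 4.43 FPKM in WT ADX against 6.02 FPKM in WT sham (-0.44, SE 0.07, adjusted p = 1.21e-05), and 2 of 16 effectors rose and 6 fell, which is 22.2% of the complex genes and 8 of 16 effectors beside 26.9% of all genes. At ZT0, 1 complex gene rose and 4 fell, and 3 effectors rose and 4 fell, which is 55.6% and 43.8% beside 32.0% of all genes. Of the TSC, Rheb and AMPK genes 0 rose and 3 fell at each hour (23.1%), and of the amino acid sensing genes 0 rose, 3 fell at ZT12 (11.5%) and 5 fell at ZT0 (19.2%). In RE-RE muscle 0 of the 9 complex genes passed at either hour. Of the effectors 0 passed at ZT12 and 1, Lpin1, fell at ZT0. Between hours, 10 of the 16 effectors rose at ZT12 over ZT0 in WT sham muscle and 0 fell, which is 62.5% beside 23.5% of all genes, with Eef2k at 10.3 FPKM at ZT12 against 6.47 FPKM at ZT0 (0.67, SE 0.09, adjusted p = 1.03e-06). In WT ADX 5 rose and 0 fell (31.2% beside 11.0% of all genes), in RE-RE sham 3 rose and 1 fell (25.0% beside 10.8%), and in RE-RE ADX 1 rose and 0 fell (6.25% beside 0.775%). The hormone-treated conditions showed no such lean upward. In WT ADX+DEX 5 rose and 4 fell (56.2% beside 27.8%), and in WT ADX+ADR 1 rose and 1 fell (12.5% beside 12.7%).

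Glucocorticoid receptor targets were followed beside Ddit4. Of 15 such genes 14 rose and 0 fell with dexamethasone at ZT12, and 13 rose and 0 fell at ZT0, which is 93.3% and 86.7% beside 66.3% and 68.9% of all genes. With adrenaline 14 rose and 0 fell at ZT12, and 13 rose and 2 fell at ZT0, which is 93.3% and 100% beside 53.0% and 51.1%. Klf15, a transcription factor induced by glucocorticoids in muscle, was 28.6 ± 2.46 FPKM in WT ADX+DEX, 23.3 ± 1.37 in WT ADX+ADR and 7.35 ± 0.0386 in WT ADX at ZT12 (SD, n = 4 each). Adrenalectomy in WT muscle lowered 10 of the 15 at ZT12 and 2 at ZT0, and raised 0, which is 66.7% and 13.3% beside 26.9% and 32.0% of all genes. In RE-RE muscle 1 fell at ZT12 and 1 rose at ZT0, and Klf15 was 19.0 ± 2.43 FPKM in RE-RE ADX against 22.7 ± 1.67 FPKM in RE-RE sham at ZT12 (SD, n = 4 each). Among FOXO factors and targets, which include the muscle ubiquitin ligases Trim63 and Fbxo32, 12 of 12 rose with dexamethasone at ZT12 and 10 rose at ZT0, where the share was 83.3%. With adrenaline 6 rose at each hour, and 1 fell at ZT0, which is 6 of 12 at ZT12 and 58.3% at ZT0. Klf15 is on both of these lists. Of 11 tested ATF4 targets, the amino acid stress genes, 4 rose and 1 fell with dexamethasone at ZT12 and 5 rose and 1 fell at ZT0, which is 45.5% and 54.5%. With adrenaline 4 of them rose and 1 fell at ZT12 and 3 rose and 2 fell at ZT0, which is 45.5% at each hour.

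Markers of other cell types moved with the hormones as well. With dexamethasone at ZT12, 5 of 5 erythroid markers fell, 1 of 9 macrophage markers rose and 4 fell, and 3 of 5 Schwann and nerve markers rose. At ZT0, 0 erythroid markers passed, 1 macrophage marker rose and 2 fell, and 3 Schwann and nerve markers rose. Of 10 skeletal muscle markers, 4 rose and 4 fell at each hour. These counts stand beside 66.3% of all genes at ZT12 and 68.9% at ZT0. The summed level of 8 endothelial markers was 82.7 to 100 FPKM in WT ADX+DEX and 162 to 238 FPKM in WT ADX+ADR, against 199 to 207 FPKM in WT ADX, all at ZT12. At ZT0 it was 91.5 to 94.6 FPKM in WT ADX+DEX and 138 to 151 FPKM in WT ADX+ADR, against 205 to 253 FPKM in WT ADX. With dexamethasone 6 of the 8 fell at ZT12 and 7 at ZT0, and Flt1 rose at both hours. That is 87.5% and 100% called, beside 66.3% and 68.9% of all genes. With adrenaline 4 of the 8 fell at ZT12 and 5 at ZT0, and Flt1 rose at both hours. That is 62.5% and 75.0% called, beside 53.0% and 51.1% of all genes. Fibroblast and tendon markers moved both ways with dexamethasone. Of 10, 5 rose at ZT12 (Pdgfra, Scx, Dcn, Fmod and Thbs4) and 4 fell, and 2 rose at ZT0 (Pdgfra and Scx) and 5 fell. Col1a1 and Col3a1 were listed at 0 in all libraries of both dexamethasone groups. The 10 markers were 90.0% called at ZT12 and 70.0% at ZT0, beside the same shares of all genes. Their sum was 144 to 206 FPKM in WT ADX+DEX against 86.2 to 220 FPKM in WT ADX at ZT12, and 161 to 183 FPKM in WT ADX+DEX against 179 to 508 FPKM in WT ADX at ZT0. Adrenaline raised 6 of these 10 markers and lowered 1 at ZT12 (70.0%), and raised 3 and lowered 0 at ZT0 (30.0%). Of the 5 Schwann and nerve markers, 0 passed with adrenaline at ZT12, and 4 rose at ZT0 (80.0%). The summed level of 10 immediate stress genes was 278 to 381 FPKM in WT ADX+ADR at ZT12, against 16.5 to 76.9 FPKM in WT ADX. In the RE-RE sham against WT sham comparison at ZT12, where Ddit4l differed, 7 of the 10 fibroblast and tendon markers were higher in RE-RE sham, with sums of 349 to 431 FPKM in RE-RE sham and 89.2 to 188 FPKM in WT sham. There 7 of the 10 immediate stress genes were higher too, with sums of 60.1 to 80.7 FPKM in RE-RE sham and 20.2 to 26.5 FPKM in WT sham. In that comparison 19.3% of all genes passed. At ZT12 the fibroblast and tendon sum was 503 to 638 FPKM in RE-RE ADX against 349 to 431 FPKM in RE-RE sham, with 0 of the 10 passing beside 5.32% of all genes. With adrenalectomy in WT muscle, 6 of the 8 endothelial markers rose at ZT12 and 5 at ZT0, and Flt1 fell at both hours. That is 87.5% and 75.0% called, beside 26.9% and 32.0% of all genes. Between hours in WT sham muscle, where Ddit4 and Eif4ebp1 rose at ZT12, 6 of the 10 immediate stress genes fell and 1 rose. That is 70.0% called beside 23.5% of all genes. The part of all these marker shifts in the members' differences was not tested.

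For each member with a mean of at least 1 FPKM, the 3 genes with the most similar 12 group means on log2(FPKM + 1) were found among 9421 candidates. For Ddit4 they were Nfkbia (Pearson's r 0.928), Impdh2 (0.917) and Cdk5rap3 (0.903). For Eif4ebp1 they were Myoz1 (0.984), Bod1 (0.972) and Lrrc47 (0.972), and for Deptor Ache (0.936), Sqor (0.931) and Ociad2 (0.929). Fnip1 was most like Zranb1 (0.920), Bnip3l (0.912) and Tsg101 (0.905), and Ddit4l most like Cd274 (0.861), Pde4b (0.853) and Fbxo34 (0.840). Sesn1 was most like Slc2a4rg-ps (0.920) and Tial1 (0.910), beside 1 further locus known only by a clone name. These coefficients describe 12 means that share libraries and were picked as the highest among many.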

How the data were processed

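Whole tibialis anterior RNA was sequenced as single-end reads of 60 bases, on average 25 M reads per sample, per the labels' protocols. The submitters' processing notes name the genome build GRCm38 and the tools HISAT2 2.1.0, featureCounts 1.6.2, edgeR 3.30.0, FastQC 0.11.8 and Trim Galore 0.5.0; the strand setting is not given in the sources used here. The authors deposited 1 table of log2 FPKM for 13500 genes, whose lowest value, -6.64, is the log2 of 0.01. FPKM was recovered by subtracting 0.01 from the antilog; whether 0.01 was added to every value or set as a floor cannot be told apart. Depth per library and counting error are unknown from these values. Symbols matched 13441 of the identifiers.

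Tests were made with limma 3.58.1 in R 4.3.3 on the deposited log2 values of 12000 genes with at least 1 FPKM in at least 3 libraries, in 1 model of 12 group means with 35 residual degrees of freedom, for 22 comparisons. Benjamini-Hochberg adjustment ran over the 12000 genes within a comparison, and the threshold was 0.05. Fold changes are on the log2(FPKM + 0.01) scale, which gives values listed at 0 much weight, so none is given for Ddit4 against a group wholly at 0. The procedure was tested on simulated data with normal noise of capped spread and no values listed at 0. That simulation therefore does not cover a gene such as Ddit4. Members, gene lists and motifs were chosen with earlier results of these data known. All 7 members are named. List genes are named only where called, at most 4 per list and comparison with the smallest adjusted p, or where a member is read beside them. The 3 most similar genes had no library at 0 and a mean of at least 1 FPKM, predicted genes left out. Alternatives were log2(FPKM + 1), no filter, equal library medians, age as a covariate, leaving out genes with a 0, the 7 libraries that stand apart or each library in turn, fitting only the groups compared, and a replicate block. Tables and figures were made in Python 3.11.15.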

Additional observations from a re-analysis of the deposited data

Results flagged for a closer look

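Each member was examined in each group of 4 libraries for a library far from the rest, except where all values were equal. In 8 of these 75 sets 1 library was far. Chance gives about 1 in 20 for independent sets, but these sets share libraries between members. For Ddit4 these were WT ADX+ADR ZT12 replicate 7, highest at 5.56 FPKM, RE-RE sham ZT12 replicate 6, highest at 34.8 FPKM, RE-RE sham ZT0 replicate 2, lowest at 0.0 FPKM, and RE-RE ADX ZT0 replicate 4, lowest at 2.36 FPKM. The last 3 are among the 7 libraries that share almost no exact low values with their group. The others were Eif4ebp1 in WT ADX+ADR ZT0 replicate 2 at 20.3 FPKM, Sesn1 in RE-RE ADX ZT12 replicate 7 at 15.6 FPKM, Fnip1 in WT ADX+ADR ZT0 replicate 4 at 9.49 FPKM and Deptor in WT ADX ZT12 replicate 5 at 16.3 FPKM, each the highest of its group.

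The difference between ZT12 and ZT0 itself differed between conditions for 2 members in limma. For Ddit4 it differed between WT ADX and WT sham (adjusted p = 4.69e-05), between WT ADX+ADR and WT ADX (adjusted p = 2.12e-07) and between WT ADX+DEX and WT ADX (adjusted p = 0.00018). For Fnip1 it differed between WT ADX+DEX and WT ADX (adjusted p = 0.00441). On log2(FPKM + 1) the Ddit4 values were 2.94e-05, 0.000199 and 3.4e-05, in the same order.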

How the results depend on the processing

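Of the 39 member and comparison pairs that passed, 28 passed under every setting run for them and 0 reversed direction. The number of members past the threshold moved by over 1.5 times, or to or from 0, as follows. Leaving out genes with any library at 0 removes Ddit4 by construction, and gave 0 for time in WT ADX, 1 for time in WT ADX+ADR, 0 for each difference of the time effect of WT ADX from WT sham and of WT ADX+ADR from WT ADX, and 1 for that of WT ADX+DEX from WT ADX. On log2(FPKM + 1) it was 2 for time in WT ADX+DEX, 2 for time in RE-RE sham and 1 for genotype at ZT0. Without the 7 libraries that stand apart it was 2 for time in WT ADX+DEX, 1 for adrenalectomy in RE-RE at ZT12 and 1 for genotype at ZT0. With only the groups compared it was 2 for time in WT ADX+DEX, 5 for adrenaline at ZT12 and 1 for genotype at ZT0. With age it was 1 for adrenalectomy in WT at ZT12. Smaller moves, of 1 member, were 3 for time in WT sham with age, 3 for adrenalectomy in WT at ZT12 on log2(FPKM + 1), 6 for dexamethasone at ZT0 on log2(FPKM + 1) and without the 7 libraries, 4 for dexamethasone at ZT0 with equal medians, and 1 fewer in 5 hormone comparisons with genes at 0 left out; the block moved 4 hormone comparisons by 1 member. In all, 12 pairs that did not pass did so with log2(FPKM + 1), age, only the groups compared, without the 7 libraries or with the replicate block. The cause of these moves, apart from that construction, was not tested. Leaving out 1 library gave 1 to 2 for time in WT ADX+ADR, 1 to 2 for time in WT ADX+DEX (2 without ZT12 replicate 8), 1 to 4 for time in RE-RE sham (4 without ZT0 replicate 3), 0 to 1 for genotype at ZT0 (1 without WT sham ZT0 replicate 4 or RE-RE sham ZT0 replicate 2 or 4), and 1 to 2 for the time effect of WT ADX+ADR against WT ADX (2 without WT ADX ZT0 replicate 1 or WT ADX+ADR ZT0 replicate 4). Over all genes, the count of calls moved by over 1.5 times in 10 of 22 comparisons without the 7 libraries (0.0 to 3.12 times), in 11 with only the groups compared (0.00612 to 0.958 times) and in 2 with age (0.566 to 1.02 times).

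Replicate numbers are not stated to pair the samples. Of 42 same-numbered pairs, 3 had a correlation of their deviations over 0.1, with a range of -0.0977 to 0.219. The values 0.219 and 0.179 both came from adrenalectomy in WT at ZT0. Deviations within such small groups cannot exclude a pairing, so the block is given as an alternative. With the replicate block 20 of 28 pairs kept their call. The 8 lost were Sesn3 with dexamethasone at ZT12 (-0.55, adjusted p = 0.0843) and with adrenaline at ZT12 (adjusted p = 0.104) and ZT0 (adjusted p = 0.0697), Deptor between dexamethasone and adrenaline at ZT12 (adjusted p = 0.0698), Eif4ebp1 with adrenalectomy in WT at ZT12 (adjusted p = 0.232), Ddit4l (adjusted p = 0.0937) and Fnip1 (adjusted p = 0.059) with adrenalectomy in RE-RE at ZT12, and Ddit4l between genotypes at ZT12 (adjusted p = 0.0527). The number of members with the block was 1 for adrenalectomy in WT at ZT12, 0 for adrenalectomy in RE-RE at ZT12, 1 for genotype at ZT0 and 0 for genotype at ZT12. Over all genes the block moved the count by over 1.5 times in 8 of 12 comparisons (0.0 to 0.829 times).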
